A study of Mus musculus with 35 samples.

Results

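Cyp26a1 and Cyp26b1, the genes of enzymes that break down retinoic acid, were examined for open chromatin and for 2 histone marks in mouse embryonic fibroblasts under a chemical reprogramming protocol. The deposited files name no genes, so the loci were found by position. A row of a deposited region table, or a listed peak, belonged to a locus when it overlapped the mm9 gene body (Cyp26a1 on the plus strand, chr19:37772300-37776100, and Cyp26b1 on the minus strand, chr6:84521400-84544000) extended by 10 kb on either side. By this rule 4 of 36431 ATAC-seq regions belonged to the loci (1 at Cyp26a1 and 3 at Cyp26b1), with 2 of 12566 H3K4me3 regions (1 at each gene) and 3 of 19224 H3K27me3 regions (2 at Cyp26a1 and 1 at Cyp26b1). The single-library peak lists held 285 ATAC-seq, 83 H3K4me3 and 91 H3K27me3 peaks in these windows.

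The CYP26 enzymes are cytochrome P450 proteins that hydroxylate all-trans retinoic acid and so end its signal. Cyp26a1 is also a classic target of that signal: retinoic acid receptors bind paired half-sites in its promoter and the gene is switched on by their ligands, a feedback loop that clears the ligand. Cyp26b1 guards tissues such as the limb bud and the fetal testis from retinoic acid. H3K4me3 is typical of active or poised promoters, and H3K27me3 is the mark set by Polycomb repressive complex 2.

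All cells were fibroblasts from ICR mouse embryos, taken on day 4 of the protocol. The treatments were named by the chemicals they held: C for CHIR99021 (an inhibitor of the kinase GSK3), 6 for an inhibitor of the TGF-beta receptor ALK5, F for Forskolin (which raises cAMP), A for AM580 (an agonist of retinoic acid receptor alpha) and E for EPZ004777 (an inhibitor of the histone methyltransferase DOT1L). The 5 treatments AE, 6FAE, CFAE, C6AE and C6FAE held AM580. Basal and Control were taken as without it, because their names do not list it. EPZ004777 was present in each of those 5, so AM580 and EPZ004777 cannot be told apart, and what Basal cells received is not given in the sources used here. ATAC-seq, which marks open chromatin, had 2 libraries for each of the 7 treatments, and the ChIP-seq had 1 library per mark for Basal and for each AM580 treatment. A pair of ChIP-seq mark samples titled as control carried the treatment C6FAE in their labels and entered no comparison. The depth was 3346418 to 8764791 tags in the ATAC-seq libraries, 745089 (C6AE) to 7103488 (Basal) in the H3K4me3 libraries and 633980 (6FAE) to 6392309 (C6AE) in the H3K27me3 libraries. Fibroblast marker genes could not be looked up by position and were not analysed here.

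The sequence just upstream of each start is shown because retinoic acid receptors are known to act on Cyp26a1 through its promoter. Both are the 250 bases before the RefSeq start in GRCm38.p6, read 5′ to 3′ on the gene's own strand, and their coordinates belong to that build and not to mm9. The Cyp26a1 stretch lies at chr19:37697558-37697807 on the plus strand, and the Cyp26b1 stretch at chr6:84593811-84594060 on the minus strand. Capitals mark both half-sites of a direct repeat spaced by 5 bases.
Cyp26a1: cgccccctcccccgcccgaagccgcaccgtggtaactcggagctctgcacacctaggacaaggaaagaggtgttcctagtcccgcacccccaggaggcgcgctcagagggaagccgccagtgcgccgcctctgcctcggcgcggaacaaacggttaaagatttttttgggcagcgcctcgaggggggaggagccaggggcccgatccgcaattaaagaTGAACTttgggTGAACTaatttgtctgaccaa
Cyp26b1: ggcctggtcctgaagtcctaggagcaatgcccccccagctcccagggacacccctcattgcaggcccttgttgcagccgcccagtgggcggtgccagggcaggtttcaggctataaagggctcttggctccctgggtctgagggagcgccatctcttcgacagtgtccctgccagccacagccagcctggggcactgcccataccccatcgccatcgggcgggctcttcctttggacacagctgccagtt

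Retinoic acid receptor half-sites were searched as the consensus AGGTCA and as its close relatives, namely AGTTCA, then also the form GGTTCA, and last the form GGGTCA, on both strands of all 32851 RefSeq promoters, each reaching from 250 bases before to 50 bases after the start. Cyp26a1 held 2 half-sites, which together form a direct repeat with a spacing of 5 bases. The repeat lies 32 to 16 bases upstream of the start. On the opposite strand it reads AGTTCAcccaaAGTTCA. Such repeats with a spacing of 5 were found in 32 promoters, or 0.0974% of all. Cyp26b1 held none of these half-sites in this window, while 43.7% of all promoters held at least 1. Repeats spaced by 2 or by 1 base, in 0.268% and 0.222% of promoters, were found at neither gene.

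The loci differed in the layout of their chromatin. At Cyp26a1 a small H3K4me3 region of 1958 bp (chr19:37771577-37773534) lay over the gene start, inside an H3K27me3 domain of 26185 bp (chr19:37755632-37781816) that covered the whole gene. The outer edges of that domain were those of a C6AE peak and an AE peak. At Cyp26b1 the H3K4me3 region was 8800 bp long (chr6:84531904-84540703) and lay within the gene body, 3297 to 12096 bp downstream of the start. An H3K27me3 region of 3945 bp (chr6:84534268-84538212) lay inside it.

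These sizes stood at different ends of the tables. Only 2.56% of H3K4me3 regions were at least as long as that of Cyp26b1, against 82.8% for that of Cyp26a1. The H3K27me3 domain at Cyp26a1 was matched or exceeded in length by 3.45% of regions. Both H3K4me3 regions overlapped an H3K27me3 region, which was so for 17.9% of all H3K4me3 regions. In Basal cells H3K27me3 was high at both loci, at 14.1 RPKM (reads per kilobase of region per 1000000 mapped reads) at Cyp26a1 and 11.5 RPKM at Cyp26b1, against a median of 4.75 over all regions. The H3K4me3 RPKM of the regions was below the median there, at 4.72 and 13.6 against 17.8. The listed Basal peak at Cyp26b1 was nonetheless strong. Its fold enrichment was 14.1, against a median of 3.14 over all H3K4me3 peaks of the Basal library.

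The listed peaks of single libraries showed this layout in part. At Cyp26b1 no H3K27me3 peak was listed over the region in C6AE. The 1 kb on either side of the Cyp26a1 start was covered completely by an H3K27me3 peak in Basal and in all 5 AM580 treatments. The listed -log10 q of that peak was 3.24 in Basal, 4.43 in AE and 2.71 in C6AE. It was only 0.404 in 6FAE, 0.649 in CFAE and 0.579 in C6FAE. That peak reached past the gene end in Basal and AE, and ended within the gene in 6FAE, CFAE, C6AE and C6FAE. A further H3K4me3 peak was listed 3 to 6 kb upstream of the Cyp26a1 start, a position chosen after the lists had been seen. Its fold enrichment, the tag pileup over the background modelled by MACS, was 5.23 in Basal and 6.28 in AE. It was 3.26 in 6FAE, 6.73 in CFAE, 3.64 in C6AE and 3.49 in C6FAE. The pileups were 9 tags in Basal, 9 in AE and 10 in CFAE, and 3 or 4 in the other treatments. Per 1000000 tags the order differed, with C6AE the highest at 4.03 (exact 95% Poisson interval 0.830 to 11.8) against 1.27 in Basal (0.579 to 2.41), 1.97 in AE and 2.06 in CFAE. These intervals overlapped, so the treatments could not be ordered by this peak. In each treatment but C6FAE the strongest of these peaks overlapped the gene-proximal end of the ATAC-seq region of Cyp26a1. In RefSeq the next gene upstream is Cyp26c1, which codes for another retinoic acid hydroxylase and was not analysed here. Its mm9 position was not available, so whether the upstream peak, the ATAC-seq region or the H3K27me3 domain overlap Cyp26c1 was not determined. They were assigned to Cyp26a1 by distance alone.

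**Figure D1:**
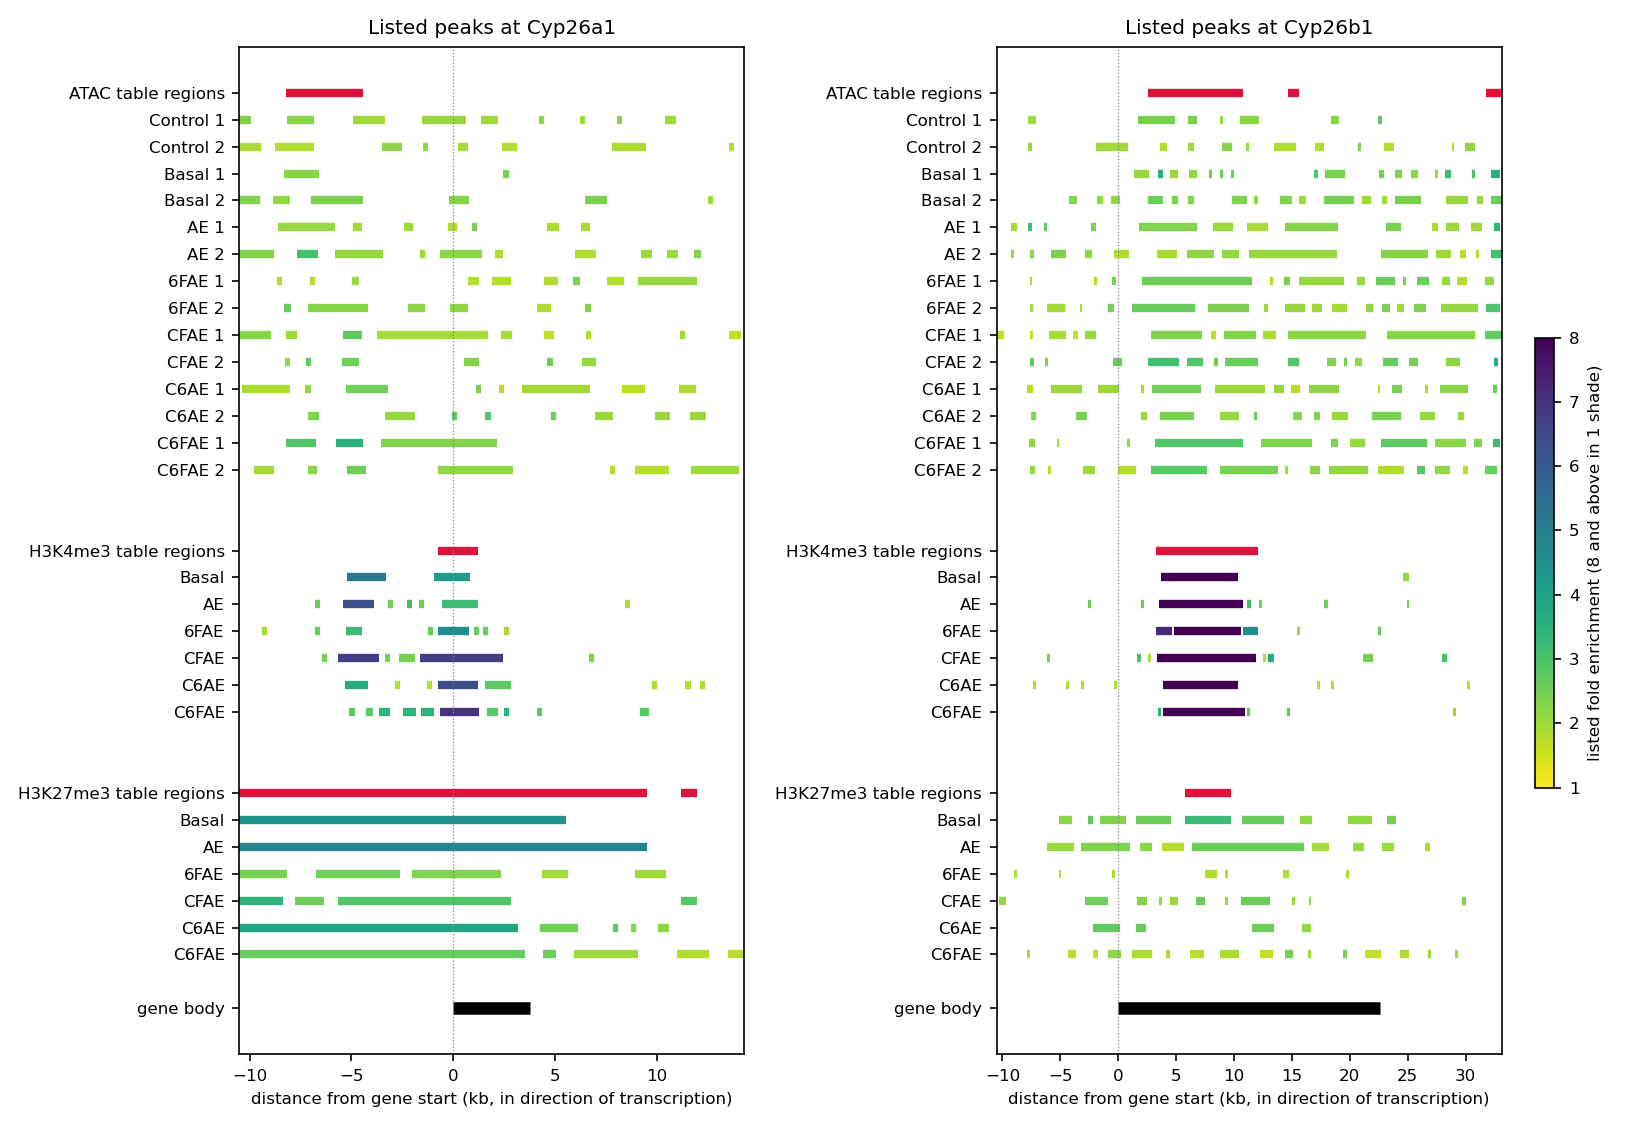
Listed peaks within 10 kb of each gene body by distance from the gene start in kb, along the direction of transcription, with 1 row per library and the shade giving the listed fold enrichment. Red bars are regions of the deposited tables and the black bar is the gene body. H3K27me3 spans the Cyp26a1 start in each library shown, while at Cyp26b1 the strong H3K4me3 peaks sit inside the gene and no strong peak of any assay lies on the start.

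Open chromatin was weak at both gene starts in all libraries. Within 1 kb of the Cyp26a1 start a peak was listed in 9 of 10 libraries with AM580 and in 3 of 4 without. The highest fold enrichment there ranged from 1 (no listed peak) to 2.85 with AM580, with a median of 2.20, and from 1 to 2.27 without, with a median of 2.00. The ranges of the libraries with and without AM580 overlapped almost completely.

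Within 1 kb of the Cyp26b1 start a peak was listed in 7 of 10 libraries with AM580 and in 2 of 4 without. The fold enrichment ranged from 1 to 2.62 with a median of 1.95, and from 1 to 2.17 with a median of 1.51 without AM580. No peak at either start reached a listed -log10 q of 1.3 in any of the 14 libraries, and the pileups did not exceed 4.37 tags. In bulk chromatin, a change in the share of cells that are open and a change in signal per cell cannot be told apart.

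On the log2 scale the libraries with AM580 exceeded those without by 0.25 at Cyp26a1 (1.04 ± 0.41, SD, n = 10, against 0.79 ± 0.54, SD, n = 4). A two-sided exact permutation test over 1001 splits gave p = 0.354, or 0.426 after Benjamini-Hochberg adjustment over the 2 genes. The test treated single libraries as exchangeable, although they came from 5 treatments with AM580 and from Basal and Control. Its p-values, here and below, do not allow for likeness between the 2 libraries of a treatment. At Cyp26b1 the difference was also 0.25 (0.78 ± 0.57, SD, n = 10, against 0.53 ± 0.61, SD, n = 4) with an exact permutation p = 0.426, unchanged by the adjustment. Over the whole 10 kb window of Cyp26a1 the highest peak of a library was stronger with AM580 by 0.22, with an exact permutation p = 0.0270. That value did not hold after adjustment over the 6 tests of both genes and 3 window sizes, where the exact permutation p became 0.162. Over the same window at Cyp26b1 the difference was 0.09, with an exact permutation p = 0.476.

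The ATAC-seq region of Cyp26a1 (chr19:37764095-37767879) lay 4421 to 8205 bp upstream of the start. Its fold enrichment in both libraries of a treatment was 2.21 and 1.84 in Control, 2.27 and 2.38 in Basal, and 2.1 and 3.1 in AE. It was 2.05 and 2.64 in 6FAE, 2.72 and 2.68 in CFAE, 2.51 and 2.34 in C6AE, and 3.53 and 2.54 in C6FAE. The highest library was C6FAE replicate 1, whose own peaks set both edges of this region, and the libraries with AM580 overlapped those of Basal and Control.

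In a limma fit on log2 fold enrichment over all 36431 regions, with a region without a listed peak set to 1, the Cyp26a1 region was higher in the AM580 treatments than in Basal by 0.16 (SE 0.23, 95% interval -0.34 to 0.66). Against Control it was higher by 0.36 (SE 0.23, 95% interval -0.14 to 0.86). The limma p-values with Benjamini-Hochberg adjustment were 0.930 and 0.653. AE alone differed from Basal by 0.13 (SE 0.30) with a limma adjusted p of 1.

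Cyp26b1 had 3 ATAC-seq regions. The nearest to the start (chr6:84533200-84541470, 2530 to 10800 bp downstream of it) was 8271 bp long and coincided with most of the H3K4me3 region. Its fold enrichment was 2.47 and 2.27 in Control, 3.58 and 2.58 in Basal, and 2.35 and 2.19 in AE. It was 2.55 and 2.63 in 6FAE, 2.32 and 3.12 in CFAE, 2.50 and 2.40 in C6AE, and 2.88 and 2.80 in C6FAE. A Basal library was the highest of the 14 and an AE library the lowest.

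The limma difference of this region was -0.25 against Basal (SE 0.21, 95% interval -0.71 to 0.22) and 0.11 against Control (SE 0.21, 95% interval -0.35 to 0.58). The adjusted p-values from limma were 0.858 and 0.915. Without Basal replicate 1 the difference from Basal was -0.01, and without Basal replicate 2 it was -0.49. With peaks of -log10 q 1.3 or more it was -0.92 (95% interval -1.83 to -0.01, limma adjusted p = 0.771). That value rested on Basal replicate 1 alone, because every other library had no such peak there and was set to 1.

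A region inside the gene body of Cyp26b1 (chr6:84528409-84529314) had no listed peak in Control replicate 1 and Basal replicate 1. Its fold enrichment was 1.85 in the other Control library, 2.37 in the other Basal library and 1.73 to 2.90 in the libraries with AM580. The limma difference was 0.52 against Basal (SE 0.32, adjusted p = 0.757) and 0.70 against Control (SE 0.32, adjusted p = 0.471). Against Control it was 0.26 without Control replicate 1 and 1.14 without Control replicate 2. Without Basal replicate 1, the library with no listed peak, the difference from Basal became -0.10, and without Basal replicate 2 it became 1.14.

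The region farthest from the start (chr6:84510986-84512268) lay beyond the end of Cyp26b1 and varied most. Its fold enrichment was 1 (no listed peak) and 1.95 in Control and 3.55 and 2.53 in Basal. It was 3.39 and 3.1 in AE, 2.1 and 2.94 in 6FAE, and 2.69 and 3.55 in CFAE. It was 2.61 and 1 (no listed peak) in C6AE, and 3.24 and 2.60 in C6FAE. Both Control libraries lay below every Basal, AE, 6FAE, CFAE and C6FAE library, and C6AE replicate 2 was the exception among the AM580 treatments.

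This region had the smallest p of the loci, with a limma difference of 0.89 from Control (SE 0.35, 95% interval 0.14 to 1.64). Its limma adjusted p was 0.376, so it did not pass. The difference rested on Control replicate 1, which had no listed peak: without that library it was 0.41 (95% interval -0.57 to 1.38), and without Control replicate 2 it was 1.37. The AM580 treatments did not exceed Basal there (-0.21, SE 0.35, limma adjusted p = 0.940).

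In all, 0 of 4 regions of the loci passed a limma adjusted p of 0.05 in any of these 3 contrasts. Against Control 112 regions of the whole table (0.307%) were called higher and 5 (0.0137%) lower, so a count of 0 among 4 regions carries little information. At an unadjusted limma p below 0.05, 2 of 4 regions were counted against Control (both Cyp26b1 regions other than the one nearest its start), against 10.4% of the whole table. Without Control replicate 1, or with centred libraries, neither of the pair was below 0.05. Against Basal limma called 0 regions (0% higher and 0% lower), with 2918 at an unadjusted p below 0.05. For AE against Basal limma called 0 regions (0%), with 1677 at an unadjusted p below 0.05. With pileup per 1000000 tags in place of fold enrichment limma called 131 and 127 regions in those contrasts.

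**Figure D2:**
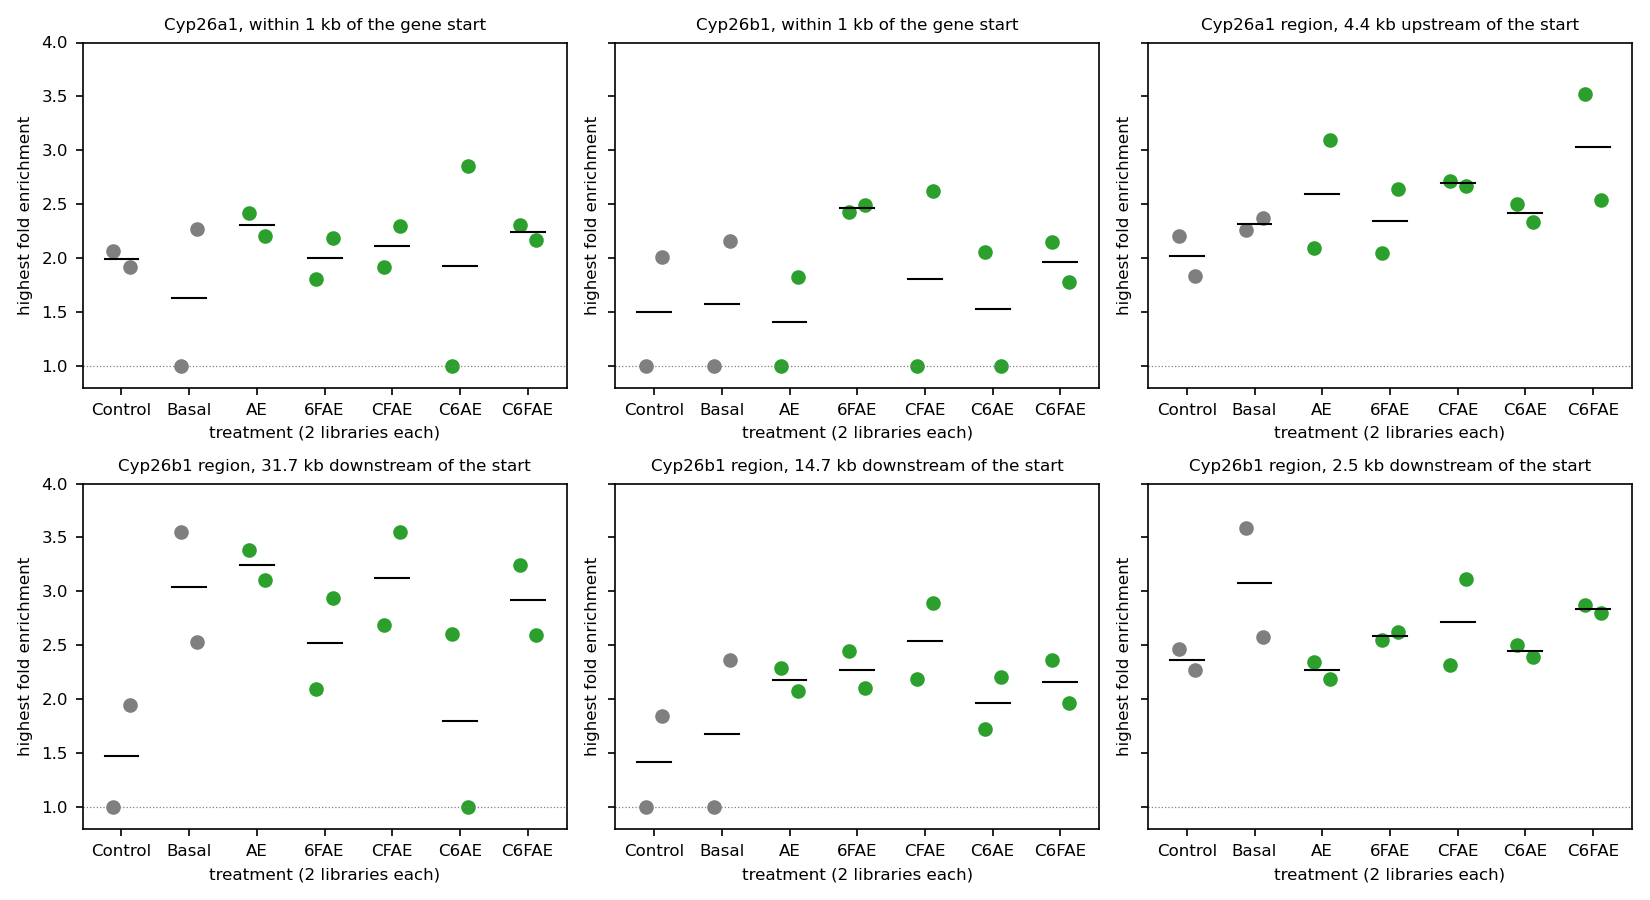
Highest listed ATAC-seq fold enrichment by treatment, with 1 point per library and a bar for the mean of both libraries, within 1 kb of each gene start and over the 4 ATAC-seq regions. Grey points are Control and Basal, green points hold AM580, and the dotted line at 1 stands for no listed peak. In the Cyp26b1 region 31.7 kb downstream of its start both Control libraries lie below most others, and Basal is as high there as the AM580 treatments.

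The deposited RPKM table holds 1 column per treatment, merged by the authors over both libraries, and so has no replicate error. At Cyp26a1 it gave 7.08 RPKM in Control, 12.1 in Basal, 14.1 in AE, 10.1 in 6FAE, 12.0 in CFAE, 11.4 in C6AE and 15.4 in C6FAE. All 5 AM580 treatments lay above Control, as did Basal, and they fell on both sides of Basal. Values above Control in all 5 were found in 37% of all ATAC-seq regions. The mean of the AM580 treatments minus Control was 0.73 on log2(RPKM + 1), against a median of 0.34 over all regions, and minus Basal it was 0.04 against a median of 0.10.

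The region of Cyp26b1 nearest its start had 9.40 RPKM in Control, 12.8 in Basal, 16.2 in AE, 19.2 in 6FAE, 21.3 in CFAE, 16.4 in C6AE and 24.0 in C6FAE. Each AM580 treatment lay above Basal, which was so for 18.2% of all regions. The mean difference was 0.55 from Basal and 0.96 from Control on log2(RPKM + 1). The edges of this region were those of a C6FAE replicate 1 peak and a CFAE replicate 2 peak. These treatments had the highest RPKM, and the part of that choice of bounds was not tested. On listed fold enrichment, the limma difference of the same region from Basal, given above, was -0.25 (SE 0.21). Without Basal replicate 1 it was -0.01, so fold enrichment gave no clear direction to set against RPKM. The longest listed peak there was 1323 and 1273 bp in the Basal libraries, and 3203 and 836 bp in the Control libraries. With AM580 it ranged from 2324 bp (AE replicate 2) to 9548 bp (6FAE replicate 1), a range that held Control replicate 1. Whether peak length affected the listed fold enrichment was not tested.

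The region within the gene body had 7.98 RPKM in Control and 14.5 in Basal, and from 11.7 in C6AE to 19.5 in AE among the AM580 treatments. The region beyond the gene end had 6.44 RPKM in Control, 23.8 in Basal and 29.7 in AE. It had 15.2 in 6FAE, 15.7 in CFAE, 6.39 in C6AE and 20.0 in C6FAE. C6AE was thus at the level of Control and AE was the highest. The edges of the region within the gene body were those of a CFAE peak. Those of the region beyond the gene end were from an AE peak and a 6FAE peak.

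Against Control, 1 of 4 regions of the loci (the one beyond the gene end of Cyp26b1, 1.16 on log2(RPKM + 1)) was at least 2-fold higher in the mean of the AM580 treatments, a size reached by 15.1% of all regions, and 0 of 4 were at least 2-fold lower, against 2.88%. Against Basal, 0 of 4 were at least 2-fold higher, where 4.56% of all regions were, and 0 of 4 were at least 2-fold lower, where 3.29% were. For comparison, Basal minus Control at the region beyond the gene end was 1.74, a difference that 3.46% of regions reached.

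Over the 7 columns, the regions elsewhere whose ATAC-seq RPKM ran most like that of the Cyp26a1 region were chr2:181054213-181055316, chr5:143649554-143651479 and chr8:126472140-126474987, with Pearson correlations of 0.994, 0.992 and 0.991. For the region of Cyp26b1 nearest its start they were chr13:27024224-27025274, chr16:42514478-42515468 and chr6:141038912-141040590, with 0.995, 0.994 and 0.993. These are the best of 25204 regions over only 7 columns, which share the depth of each library, and serve as a description.

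By RPKM, H3K4me3 was higher than in Basal at both loci in all 5 AM580 treatments. By listed fold enrichment, given below, this did not hold in every treatment. The Cyp26a1 region had 4.72 RPKM in Basal, 5.22 in AE, 6.57 in 6FAE, 12.9 in CFAE, 38.1 in C6AE and 11.5 in C6FAE. AE was close to Basal, CFAE and C6FAE stood well above it, and C6AE stood far above all others. The Cyp26b1 region had 13.6 RPKM in Basal, 25.8 in AE, 16.8 in 6FAE, 20.5 in CFAE, 33.9 in C6AE and 16.0 in C6FAE. Here C6AE and AE were the highest, and C6FAE was nearest to Basal.

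With 1 library per treatment there is no test of these differences. On log2(RPKM + 1) the mean of the AM580 treatments exceeded Basal by 1.14 at Cyp26a1 and by 0.64 at Cyp26b1, while the median over all regions was -0.19. A difference of that size or more was found in 0.350% and 1.90% of regions. Values above Basal in all 5 treatments were found at 2 of 2 regions of the loci, against 0.979% of all regions. Both regions belonged to the lowest quartile of regions by H3K4me3 RPKM in Basal, and within that quartile 3.85% of regions were above Basal in all 5. At least 2-fold higher in the mean were 1 of 2 regions (Cyp26a1), against 0.573% of all regions and 2.29% of that quartile, and at least 2-fold lower were 0 of 2, against 0.844% of all regions.

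**Figure D3:**
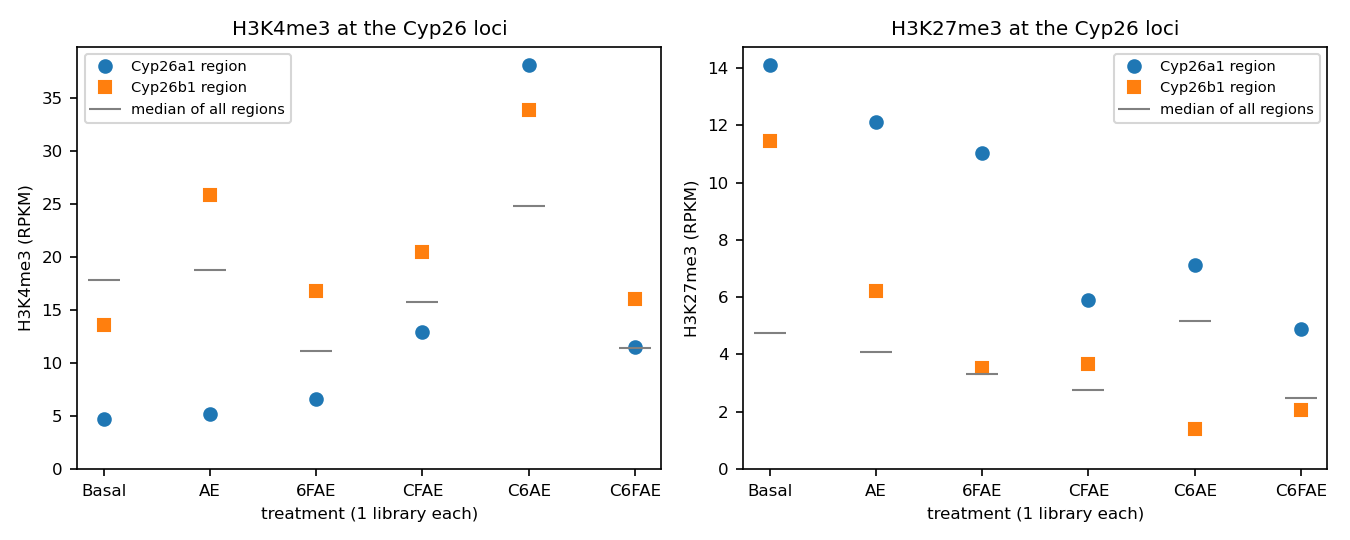
RPKM of H3K4me3 (left) and H3K27me3 (right) by treatment, with 1 library each and no error bars, at the Cyp26a1 and Cyp26b1 regions nearest the gene starts. Grey dashes are the median of all regions of the table. H3K4me3 lies above the Basal value in all 5 AM580 treatments at both genes and H3K27me3 lies below it.

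Depth differed widely between the H3K4me3 libraries. The C6AE library, the highest at both loci, held 745089 tags against 7103488 in Basal, and its median over all regions was also the highest, at 24.8 RPKM. The edges of the Cyp26a1 region were those of the C6AE peak and the edges of the Cyp26b1 region were the outer edges of peaks in 6FAE, so peaks of libraries with AM580 set the bounds of both regions. The part of depth and of region choice in the result was not tested. Without C6AE the mean difference from Basal was 0.74 at Cyp26a1 and 0.49 at Cyp26b1.

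The tag counts behind these values were small. The highest H3K4me3 pileup over the Cyp26a1 region was 7 tags in Basal, 4 in AE, 6 in 6FAE, 10 in CFAE, 6 in C6AE and 9 in C6FAE. Per 1000000 tags this was 0.985 in Basal (exact 95% Poisson interval 0.396 to 2.03), 0.874 in AE and 1.48 in 6FAE. It was 2.06 in CFAE (0.988 to 3.79), 8.05 in C6AE (2.96 to 17.5) and 2.73 in C6FAE (1.25 to 5.18). Only the interval of C6AE lay wholly above that of Basal. In C6AE 1 tag was already 1.34 per 1000000. The intervals cover counting error of a fixed count only, while each value is the highest over the region. They therefore cannot show that C6AE differed from Basal.

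At Cyp26b1 the highest pileup was 26 tags in Basal, 32 in AE, 23 in 6FAE, 27 in CFAE, 11 in C6AE and 14 in C6FAE. Per 1000000 tags this was 3.66 in Basal (2.39 to 5.36), 6.99 in AE (4.78 to 9.87) and 14.8 in C6AE (7.37 to 26.4), with the other 3 treatments from 4.25 to 5.67. Again C6AE alone lay wholly above the interval of Basal, with the same limit. The listed fold enrichment gave another order at Cyp26b1: 14.1 in Basal, 20.7 in AE, 15.6 in 6FAE, 17.1 in CFAE, 10.9 in C6AE and 10.5 in C6FAE. On that scale the mean difference from Basal was 0.03, and C6AE and C6FAE lay below Basal. At Cyp26a1 the listed fold enrichment was 4.19 in Basal, 3.14 in AE, 4.56 in 6FAE, 6.73 in CFAE, 6.38 in C6AE and 6.97 in C6FAE, a mean difference of 0.35 with AE below Basal.

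By RPKM, H3K27me3 was lower than in Basal at both loci in all 5 AM580 treatments. The Cyp26a1 domain had 14.1 RPKM in Basal, 12.1 in AE, 11.1 in 6FAE, 5.90 in CFAE, 7.13 in C6AE and 4.91 in C6FAE. By RPKM, AE and 6FAE were nearest to Basal, and the 3 treatments with CHIR99021 were the lowest. By listed fold enrichment, given below, 6FAE was the lowest instead. The median RPKM over all H3K27me3 regions was also lowest in CFAE (2.75) and C6FAE (2.50), but was 5.18 in C6AE. The Cyp26b1 region had 11.5 RPKM in Basal, 6.23 in AE, 3.53 in 6FAE, 3.67 in CFAE, 1.41 in C6AE and 2.05 in C6FAE. Every AM580 treatment was well below Basal there, C6AE the most.

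The mean difference from Basal on log2(RPKM + 1) was -0.78 at Cyp26a1 and -1.61 at Cyp26b1, against a median of -0.35 over all regions. A value below Basal in all 5 treatments was found in 30.2% of all regions. Within the quartile of regions highest in Basal, to which both belong, it was found in 78.7%, so this direction is common among regions of their level. At least 2-fold lower in the mean was 1 of 3 regions (Cyp26b1), against 14.9% of all regions and 37.7% of that quartile, and 0 of 3 were at least 2-fold higher, against 6.28%. The edges of the Cyp26b1 region were those of the Basal peak itself, and the part of that choice of bounds in the difference was not tested.

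A small H3K27me3 region beyond the end of Cyp26a1 (chr19:37783491-37784264, 774 bp) had 0.612 RPKM in Basal, 1.39 in AE, 0 in 6FAE, 6.30 in CFAE, 1.36 in C6AE and 2.52 in C6FAE. Its edges were those of a CFAE peak, and CFAE was the highest. Of the AM580 treatments, 6FAE lay below Basal and the other 4 above. The 6FAE library held 633980 tags, the fewest of the H3K27me3 libraries.

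By listed peaks the picture was less uniform. The highest fold enrichment over the Cyp26b1 region was 3.26 in Basal, 2.59 in AE, 1.85 in 6FAE, 2.66 in CFAE and 1.85 in C6FAE, and no peak was listed in C6AE. All AM580 treatments were thus below Basal there, but CFAE was above AE, unlike in RPKM. At the Cyp26a1 domain the fold enrichment was 4.46 in Basal, 4.84 in AE, 2.54 in 6FAE, 3.44 in CFAE, 3.88 in C6AE and 2.65 in C6FAE. There AE was above Basal and the other treatments below. Per 1000000 tags the pileup in 6FAE, the shallowest library, was above Basal at both genes, at 2.78 against 1.79 at Cyp26a1 and 1.58 against 1.22 at Cyp26b1, where it rested on 1 tag.

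**Figure D4:**
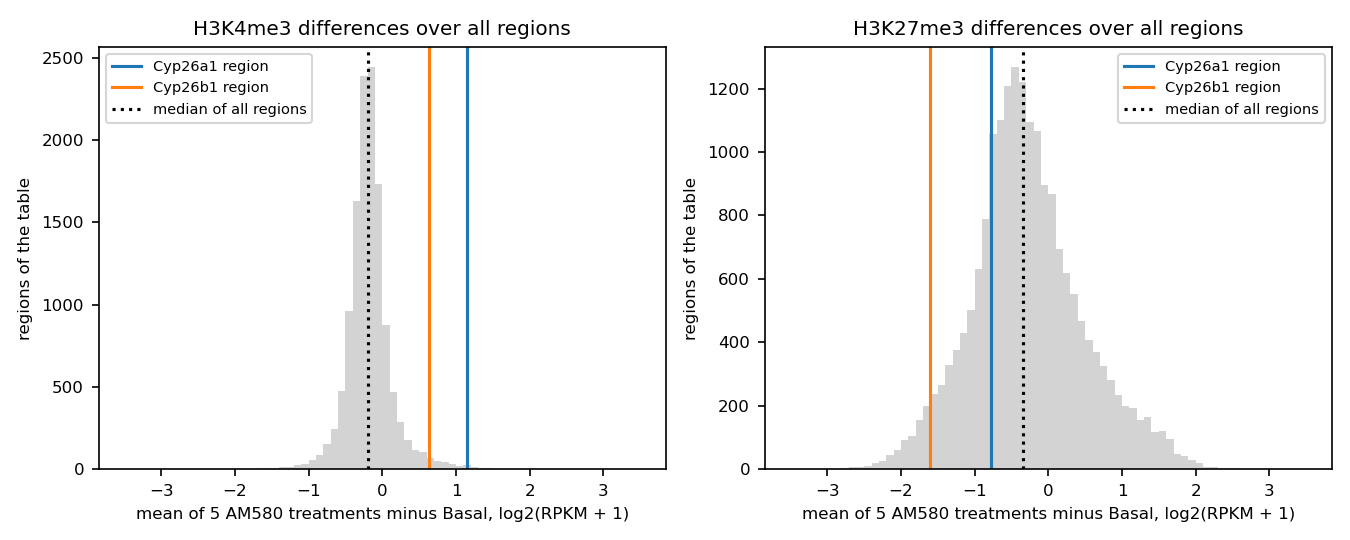
Distribution over all table regions of the mean of the 5 AM580 treatments minus Basal on log2(RPKM + 1), for H3K4me3 (left) and H3K27me3 (right), in bins of 0.1. Coloured lines mark the Cyp26a1 and Cyp26b1 regions and the dotted line is the median of all regions. For H3K4me3 the loci lie at 1.14 and 0.64, in the upper tail, and for H3K27me3 at -0.78 and -1.61, below the median of -0.35.

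Among the AM580 treatments, the 3 with Forskolin had a lower H3K4me3 RPKM at Cyp26b1 (16.0 to 20.5) than the 2 without (25.8 to 33.9). The median over all H3K4me3 regions split the same way, at 11.2 RPKM in 6FAE, 15.7 in CFAE and 11.4 in C6FAE against 18.8 in AE and 24.8 in C6AE. By listed fold enrichment the groups overlapped at Cyp26b1. It was 10.5 to 17.1 with Forskolin, and 20.7 in AE and 10.9 in the shallow C6AE library without it. At Cyp26a1 the H3K4me3 values overlapped (6.57 to 12.9 with Forskolin and 5.22 to 38.1 without), as did those of H3K27me3 at both genes.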

How the data were processed

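Reads were aligned to mm9 with Bowtie2 per the labels. Peaks of single libraries were called by the authors (MACS 2.1.2, p-value 0.05), with tags extended to 250 bp, ATAC-seq and H3K27me3 as broad peaks. The ChIP-seq had input libraries, but the listed fold enrichment at the loci showed no local input background. The deposited lists give a pileup signal, fold enrichment and -log10 p and q, used as listed although the headers state that q was not calculated. Fold enrichment equalled (pileup + 1)/(expected tags + 1) within 2% for all peaks of the loci. The expected tags came from the depth of the same library, taken as uniform over the genome. Fold enrichment therefore shrinks at low depth. The deposited RPKM tables (deepTools 3.1.0) hold 1 column per treatment. The loci, lists and tests were chosen with earlier results of these data known.

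The highest fold enrichment per region and library (1 without a peak), as log2, was fitted with limma 3.58.1 in R 4.3.3 on 7 groups of 2 libraries, with Benjamini-Hochberg adjustment at 0.05, and checked on simulated data. P-values measure the spread between libraries, which may be technical. RPKM was compared as log2(RPKM + 1), with 2-fold as the threshold and no test. Within 1 kb of a start, an exact permutation test compared 10 libraries with 4. Regions and genes were named by position alone. Python 3.11.15, numpy 2.4.6, pandas 2.3.3 and scipy 1.17.1 were used. Alternatives changed scaling, peak threshold, readout, pseudocount, window and libraries. Other retinoid genes were not analysed here.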

Additional observations from a re-analysis of the deposited data

Results flagged for a closer look

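The H3K4me3 sample titled as control, whose labels give the treatment C6FAE, had a listed peak within 1 kb of the Cyp26a1 start with a fold enrichment of 6.37. It was singled out because it lies outside the comparisons and exceeds the value in Basal, 4.19.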

How the results depend on the processing

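No region of the loci passed the limma threshold under any alternative run. The difference at the Cyp26b1 region nearest its start against Control turned to -0.03 both with quantile normalization and with pileup per 1000000 tags, and AE against Basal beyond the gene end turned to -0.03 with peaks of -log10 q 1.3 or more. Over left-out libraries, AE against Basal ranged from -0.15 to 0.41 at Cyp26a1, from -0.13 to 0.36 beyond the end of Cyp26b1 and from -0.12 to 1.12 inside it. AM580 against Control ranged from 0.41 to 1.37 beyond the end and from 0.26 to 1.14 inside it, lowest without Control replicate 1. AM580 against Basal ranged from -0.49 to -0.01 nearest the start, and from -0.45 to 0.03 and from -0.10 to 1.14 beyond the end of Cyp26b1 and inside it. Regions called over the whole table against Control, 117 in all, became 226 with pileup per 1000000 tags and 0 with quantile normalization or peaks of -log10 q 1.3 or more. They ranged from 0 to 295 over left-out libraries, with 0 in 12 of 14 cases, 231 without 6FAE replicate 1 and 295 without C6AE replicate 2. Against Basal 0 became 137 with centred libraries, 55 with peaks of -log10 q 1.3 or more and 131 with pileup per 1000000 tags, and AE against Basal became 127 with the latter. The cause was not tested.

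With the replicate number as a block, the limma count against Control was 0 and no other call changed. Deviations of same-numbered libraries did not go together (21 correlations from -0.15 to 0.054), so the numbers were not taken to pair libraries.

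The difference of libraries with AM580 at Cyp26a1 passed the exact permutation threshold, unadjusted, over the whole 10 kb window alone. It was 0.22 there, with an exact permutation p of 0.0270, or 0.162 adjusted over 6 tests. Within 1 kb of the start, where the difference was 0.25, it ranged from -0.02 (without Basal replicate 1) to 0.38 over left-out libraries. Libraries were not left out over the 10 kb window. ATAC-seq RPKM at Cyp26a1 minus Basal turned to -0.06 with centring and -0.08 with quantile normalization, and ranged from -0.04 to 0.11 over left-out treatments. Minus Control it was 0.40 with a pseudocount of 10, 0.33 with centring and 0.22 with quantile normalization, and at Cyp26b1 0.59, 0.55 and 0.53. The ATAC-seq regions of the loci at least 2-fold above Control, 1 in the report, were 4 at 1.5-fold, 2 with a pseudocount of 0.1, and 0 with a pseudocount of 10, centring or quantile normalization. Higher calls made up 84.0% of ATAC-seq calls against Control and 50.7% after centring (58.1% and 43.9% against Basal).

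For H3K4me3, regions at least 2-fold higher were 2 at 1.5-fold and 0 with a pseudocount of 10 or without the lowest quartile by mean RPKM, which removes the Cyp26a1 region. With listed fold enrichment, added after seeing the data, the H3K4me3 difference was 0.35 at Cyp26a1, short of 2-fold, and 0.03 at Cyp26b1, and that of H3K27me3 was -0.40 and -0.79. The H3K27me3 difference at Cyp26b1 was -0.69 with a pseudocount of 10. H3K27me3 regions at least 2-fold higher became 1 at 1.5-fold or with centring, and those lower became 2 at 1.5-fold and 0 with a pseudocount of 10. Higher calls made up 40.5% of H3K4me3 calls and 70.6% after centring, and 29.6% and 63.1% for H3K27me3. The ChIP-seq values rest on 1 library each, with H3K4me3 pileups of 4 to 10 tags at Cyp26a1 and 11 to 32 at Cyp26b1.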

Other observations

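The pair of ChIP-seq mark samples titled as control had the following values at the loci. H3K4me3 was 5.97 RPKM at the Cyp26a1 region and 11.1 RPKM at the Cyp26b1 region, and H3K27me3 was 9.36 RPKM at the Cyp26a1 domain and 9.48 RPKM at the Cyp26b1 region. The small H3K27me3 region beyond the end of Cyp26a1 was at 0 RPKM. The H3K4me3 peak 3 to 6 kb upstream of the Cyp26a1 start was also listed there, with a fold enrichment of 6.37 on 8 tags.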
